A study of Homo sapiens with 21 samples.

Results

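SMAP9C and SMAP6G are clonal lines of Panc-1, a cell line derived from a human pancreatic ductal carcinoma, that were grown out under the drug SMAP. SMAPs are small molecule activators of the protein phosphatase PP2A. The 3 libraries whose genotype label is SMAP9C were set against the 3 whose label is SMAP6G, which makes 6 of the 21 libraries of the series. Both clones were kept in 8 µM SMAP, the same drug at the same dose, so the comparison is between clones and not between doses or drugs. The protocols describe passage of Panc-1 (from ATCC) in rising drug for 4 months. The survivors were cloned by serial dilution to single colonies, and picked for sequencing partly on qRT-PCR results. Each name is therefore 1 clone, chosen in part on its expression. Another SMAP clone, SMAP8D, and the clones ATUX8H, ATUX9D, Sor6G and Sor9H, which were grown in 8 µM of ATUX or Sorafenib, were sequenced beside them with 3 libraries each. Untreated Panc-1 was not analysed here, so neither clone has a parental level to be read against. Whether the 3 libraries of a clone came from separate cultures is not stated, so the p-values measure only library-to-library spread and that spread may be technical.

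PP2A is a serine and threonine phosphatase built from a catalytic subunit, a scaffold subunit and 1 of many regulatory B subunits that choose the substrate and the place in the cell. It counteracts several growth kinases, and it is held in check by inhibitor proteins such as SET while methylation of the catalytic subunit helps B subunits to bind. Panc-1 cells are known for a partly mesenchymal state, with much vimentin and little E-cadherin.

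Total counts were 23658216, 26289675 and 21022621 in the SMAP9C libraries, against 22245087, 21515482 and 22218233 in the SMAP6G libraries. Mitochondrially encoded genes took 3.44 to 3.92% of the counts in SMAP9C and 3.65 to 4.22% in SMAP6G. Levels are given as CPM, a gene's counts scaled to a common library total, with totals adjusted by the trimmed mean of M values (TMM). The duct label was checked against its markers. Both clones held keratins 8, 18 and 19, SOX9 and MUC1, while KRT7 averaged 5.44 CPM in SMAP9C and 6.81 CPM in SMAP6G, EPCAM averaged 1.60 CPM in SMAP9C and 1.85 CPM in SMAP6G, and CFTR had 0 counts in all 6 libraries. Defining markers of acinar and endocrine, immune and endothelial cells reached at most 1.04 CPM in any library (CD14), and PTPRC, the pan-leukocyte marker, had 0.430, 0.116 and 0.778 CPM in SMAP9C against 0, 0.0913 and 0 CPM in SMAP6G.

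With edgeR's quasi-likelihood test, 3301 of 16504 tested genes (20.0%) were higher and 3255 (19.7%) lower in SMAP9C at an adjusted p (Benjamini-Hochberg) below 0.05, together 39.7%. Most of these differences were small, since 673 genes (4.08%) were called and at least 2-fold higher and 610 (3.7%) called and at least 2-fold lower, together 7.77%. At the far end, 221 genes were at least 4-fold higher and 234 at least 4-fold lower, with 38 and 50 at least 16-fold apart. The libraries of the clones did not overlap for 9049 genes (54.8%). The median log2 fold change over all tested genes was -0.01. Against this background a list with about 20% of its members called in each direction is like any other, so gene groups below are described by how many of their tested members were called each way and by their median.

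**Figure D1:**
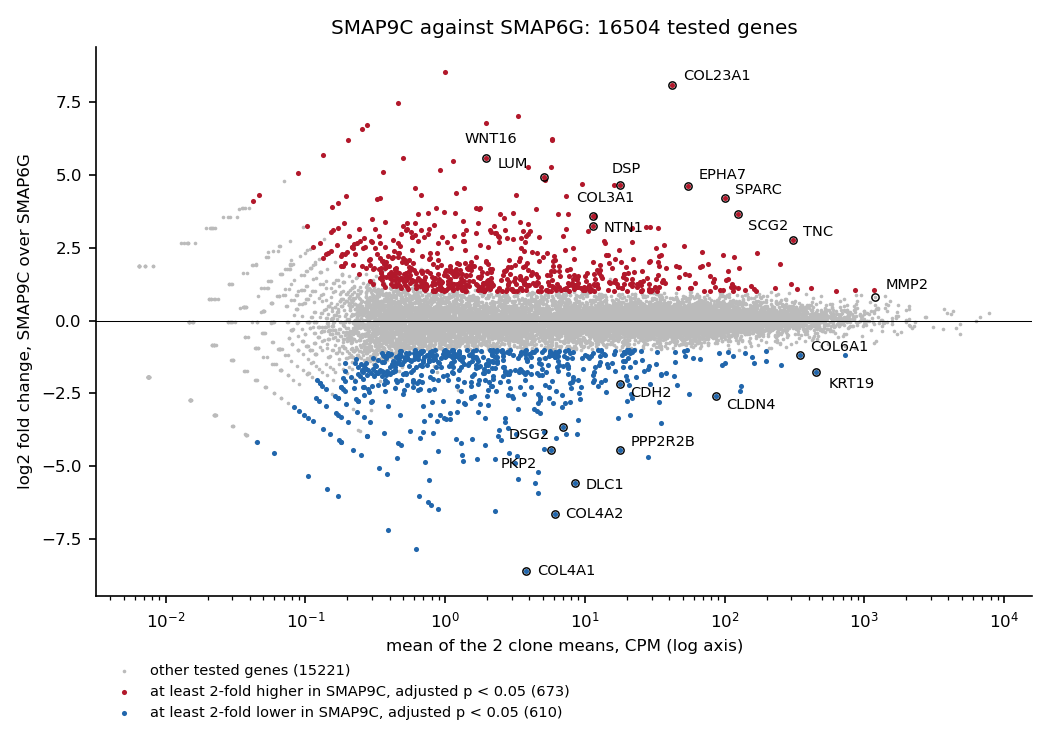
Log2 fold change of SMAP9C over SMAP6G (vertical axis) against the mean of the clone means in CPM (log horizontal axis), 1 point per tested gene. Red points are the 673 genes called and at least 2-fold higher in SMAP9C and blue points the 610 called and at least 2-fold lower, with named genes circled; MMP2, SPARC and TNC are among the abundant genes on the upper side (MMP2 passed the test at under 2-fold) and KRT19, COL6A1 and CLDN4 on the lower side.

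The PP2A genes came first because the drug is directed at this enzyme. The catalytic genes and the main scaffold gene PPP2R1A were at similar levels in the clones, while the other scaffold gene, PPP2R1B, was lower in SMAP9C. The regulatory subunit PPP2R2B stood far apart. PPP2R2B (chr5:146581146-147084784, GRCh38, minus strand) encodes a B55 beta subunit best known from neurons. It had 1.8, 1.47 and 1.46 CPM in the SMAP9C libraries, against 37.8, 31.9 and 33.3 CPM in the SMAP6G libraries. All 3 SMAP9C libraries lay far below all 3 SMAP6G libraries, with a log2 fold change of -4.44 ± 0.20 (SE), edgeR adjusted p = 6.67e-13. In the other clones the gene had both kinds of level: it averaged 2.44 CPM in SMAP8D and 2.10 CPM in ATUX9D, but 47.6 CPM in ATUX8H, 25.5 CPM in Sor6G and 41.9 CPM in Sor9H. The other B55 genes did not share this pattern. PPP2R2A averaged 26.3 ± 0.654 CPM in SMAP9C and 25 ± 1.42 CPM in SMAP6G (log2 0.07, adjusted p = 0.491, edgeR; means ± SD, n = 3 each here and in all such values). PPP2R2C was higher in SMAP9C, at 27.4 ± 1.55 CPM in SMAP9C and 19 ± 0.777 CPM in SMAP6G.

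Of the 34 PP2A subunits and regulators on the list, all of which were tested, 6 were higher and 5 lower in SMAP9C, close to the shares over all genes, and the list's median log2 was 0.06. Besides PPP2R2C the higher ones were FAM122A, an inhibitor of B55 complexes (log2 0.63), the PR72-family subunits PPP2R3A (0.52) and PPP2R3B (0.32), and the inhibitors ANP32A (0.14) and SET (0.13). The lower ones besides PPP2R2B were the scaffold PPP2R1B (-0.77), the methylesterase PPME1 (-0.32), the B56 subunit PPP2R5A (-0.17) and ARPP19 (-0.13), which as a phosphoprotein inhibits B55 complexes. PPP2R1B averaged 39.3 ± 2.1 CPM in SMAP9C and 67 ± 1.48 CPM in SMAP6G, with no overlap of libraries. It and PPME1 lie on chromosome 11, where most genes differing between the clones were lower in SMAP9C, and the part of that shift in their values was not tested. Of the catalytic genes, PPP2CA averaged 190.3 ± 2.64 CPM in SMAP9C and 179 ± 4.37 CPM in SMAP6G. PPP2CB averaged 48.7 ± 1.44 CPM in SMAP9C and 47.6 ± 0.714 CPM in SMAP6G. The main scaffold gene PPP2R1A averaged 202 ± 5.76 CPM in SMAP9C and 184 ± 4.69 CPM in SMAP6G. None of these 3 passed the test, with adjusted p = 0.142, 0.674 and 0.0778 in edgeR. The number of higher calls was 2 without SMAP6G replicate 3 and 11 when only the 6 libraries were fitted, with SET, ANP32A, PPP2R3B, PPP2R2C and ARPP19 losing their call in some of them.

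**Figure D2:**
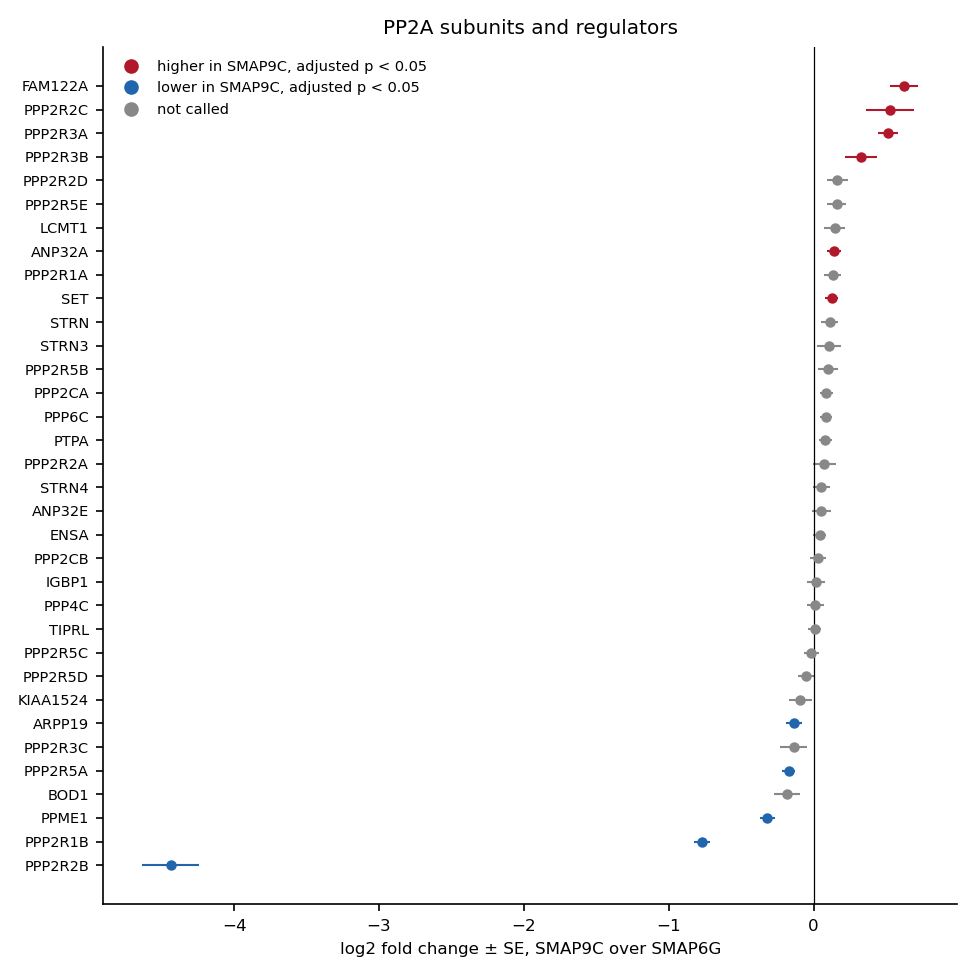
Log2 fold change ± SE of SMAP9C over SMAP6G for the 34 PP2A subunits and regulators (horizontal axis), 1 row per gene. Red and blue points passed the test, and PPP2R2B at -4.44 lies apart from the other 33, which sit between -0.77 and 0.63.

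Among genes with at least 5 CPM in the higher clone, genes of the extracellular matrix held the largest difference in each direction. COL23A1, a transmembrane collagen (chr5:178237618-178590555, GRCh38, minus strand), had 86.5, 80.3 and 85.6 CPM in the SMAP9C libraries, against 0.446, 0.274 and 0.178 CPM in the SMAP6G libraries, a log2 fold change of 8.11 ± 0.20 (SE), edgeR adjusted p = 6.69e-19. The SMAP6G libraries held 20 reads of it in all, against 5854 in the SMAP9C libraries. SPARC, a secreted protein that binds collagen and regulates matrix assembly (chr5:151661096-151687165, GRCh38, minus strand), had 182, 201 and 186 CPM in the SMAP9C libraries, against 8.79, 10.6 and 11.4 CPM in the SMAP6G libraries, a log2 fold change of 4.21 ± 0.39 (SE), edgeR adjusted p = 6.42e-07. Tenascin C, TNC (chr9:115019578-115118257, GRCh38, minus strand), a matrix glycoprotein of wounds and tumour stroma, was an abundant one, with 468, 549 and 589 CPM in the SMAP9C libraries, against 89.7, 69.7 and 78.4 CPM in the SMAP6G libraries (log2 2.76 ± 0.18 (SE), edgeR adjusted p = 8.38e-09). COL3A1, a fibrillar collagen, averaged 21.2 ± 2.7 CPM in SMAP9C and 1.77 ± 0.487 CPM in SMAP6G. Lumican, LUM, a proteoglycan that binds fibrils, averaged 9.83 ± 1.45 CPM in SMAP9C and 0.315 ± 0.122 CPM in SMAP6G. In each of these genes every SMAP9C library was above every SMAP6G library.

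The reverse was seen in the basement membrane collagens of type IV. COL4A1 was nearly absent from SMAP9C, with 0, 0 and 0.0486 CPM in the SMAP9C libraries, against 7.41, 8.54 and 6.86 CPM in the SMAP6G libraries, or 1 read in SMAP9C against 507 in SMAP6G. The ratio of SMAP6G over SMAP9C in reads relative to library size was 529.6, with a 95% counting interval of 94.6 to 20958. Such intervals cover counting error only. COL4A2 had 0.043, 0.0386 and 0.292 CPM in the SMAP9C libraries, against 12.6, 11.3 and 12.2 CPM in the SMAP6G libraries, a log2 fold change of -6.64 ± 0.50 (SE), edgeR adjusted p = 1.13e-08. These genes lie head to head on chromosome 13 and are transcribed away from each other. RefSeq (GRCh38.p14) starts COL4A1 at 110307157 on the minus strand and COL4A2 at 110307284 on the plus strand, 127 bases apart. The 126 bases between the starts, chr13:110307158-110307283 on the plus strand, are printed because a single stretch of DNA separates the starts of the pair, both of them lower in SMAP9C:

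COL4A1-COL4A2 intergenic: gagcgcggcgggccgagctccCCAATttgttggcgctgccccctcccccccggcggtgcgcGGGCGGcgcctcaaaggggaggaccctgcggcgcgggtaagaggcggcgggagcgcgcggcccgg

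The capitals mark a CCAAT motif at position 22 and a GGGCGG motif (the GC box) at position 62, counted from 1 at the left end. Both strands were searched, neither motif overlaps the other, and of 35116 RefSeq promoters 21.1% hold CCAAT and 34.6% hold GGGCGG in the 126 bases before their start. The stretch is 80.2% G or C and has 20 CG dinucleotides. In the deposited gene models COL4A2 begins at 110305812. It so overlaps the first part of COL4A1, which begins at 110307149 on the minus strand. Because the strand setting of the counting is not given in the sources used here, reads of the overlap cannot be assigned with certainty. The next gene downstream of COL4A2, RAB20, which encodes a small GTPase and was chosen after its values were seen, averaged 0.666 ± 0.114 CPM in SMAP9C and 9.59 ± 0.745 CPM in SMAP6G (log2 -3.82 ± 0.21 (SE), edgeR adjusted p = 8.75e-13). Besides COL4A1, no other gene tested within 1 Mb of COL4A2 was called at least 2-fold apart. In the other clones the type IV pair was low, at means of 0.734 and 0.816 CPM in SMAP8D and means of at most 0.311 CPM in the ATUX and Sorafenib clones, so among the 7 clones it was SMAP6G that stood out.

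Over the whole list of mesenchymal and matrix genes, 14 of 35 tested were higher and 12 lower in SMAP9C, 8 and 9 of them at least 2-fold, with a median log2 of -0.06. The list thus had more calls than the background on both sides. Of the 5 fibrillar collagen chains tested from the list, COL1A1, COL1A2, COL3A1 and COL5A2 were higher, and COL5A1 did not pass the test (log2 0.50, edgeR adjusted p = 0.388). COL11A1, a fibrillar chain outside the list, was lower (log2 -2.60, edgeR adjusted p = 0.0383). COL1A1, the main chain of type I collagen, averaged 163 ± 8.77 CPM in SMAP9C and 49.4 ± 2.58 CPM in SMAP6G. COL12A1, which binds fibrils, averaged 11.9 ± 1.3 CPM in SMAP9C and 5.11 ± 1.27 CPM in SMAP6G. The type VI collagen chains went both ways, with COL6A1 and COL6A2 lower (log2 -0.71 for COL6A2) and COL6A3 higher (log2 0.90). COL6A1 averaged 211 ± 6.57 CPM in SMAP9C and 484 ± 1.52 CPM in SMAP6G. Thrombospondin 1, THBS1, was lower, at 17.1 ± 1.18 CPM in SMAP9C and 58.8 ± 5.63 CPM in SMAP6G. Fibronectin, FN1, was low in both clones and lower in SMAP9C, at 3.01 ± 0.45 CPM in SMAP9C and 7.3 ± 1.07 CPM in SMAP6G. Tropomyosin 1, TPM1, an actin-binding protein, was lower, at 401 ± 3.83 CPM in SMAP9C and 706 ± 11.7 CPM in SMAP6G. Vimentin (VIM), the intermediate filament of mesenchymal cells, was abundant in both clones and modestly higher in SMAP9C, at 4796 ± 66.5 CPM in SMAP9C and 3844 ± 65.5 CPM in SMAP6G (log2 0.32, edgeR adjusted p = 4.33e-05). ZEB1, a repressor of epithelial genes, was higher as well, at 139 ± 7.9 CPM in SMAP9C and 74.4 ± 1.78 CPM in SMAP6G (log2 0.90, edgeR adjusted p = 3.46e-11). THBS1, FN1, COL1A1, COL1A2, COL5A1, COL5A2, COL6A2, COL6A3, COL11A1, COL12A1, VIM and ZEB1 were chosen after their values were seen.

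Matrix proteases and their inhibitors were called higher in SMAP9C more often than lower, with 16 of 35 tested members higher, 5 lower, 14 not called and a median log2 of 0.25. The gelatinase MMP2 was among the most abundant differing genes, with 1497, 1537 and 1542 CPM in the SMAP9C libraries, against 886, 848 and 896 CPM in the SMAP6G libraries (log2 0.80 ± 0.11 (SE), edgeR adjusted p = 1.75e-05). ADAMTS6 had 82 reads in SMAP9C against 3 in SMAP6G, a ratio of 26.2 with a 95% counting interval of 8.65 to 129.5. ADAMTS1, a protease of proteoglycans, averaged 1.99 ± 0.26 CPM in SMAP9C and 0.51 ± 0.0953 CPM in SMAP6G. Inhibitors were among the 5 lower ones. TIMP3, an inhibitor bound to the matrix, averaged 0.0878 ± 0.113 CPM in SMAP9C and 2.58 ± 0.266 CPM in SMAP6G. SERPINE2, an inhibitor of serine proteases, averaged 1.63 ± 0.173 CPM in SMAP9C and 5.35 ± 0.351 CPM in SMAP6G. The gelatinase MMP9 averaged 0.429 ± 0.18 CPM in SMAP9C and 1.29 ± 0.387 CPM in SMAP6G. The laminin chain LAMC1, which belongs to the basement membrane like type IV collagen, was higher in SMAP9C at 1579.7 ± 106 CPM in SMAP9C and 761 ± 28 CPM in SMAP6G.

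Fibroblasts express many of these matrix genes, so their markers were looked at as well. Of 13 genes on the fibroblast marker list 8 were tested, of which LUM, DCN, RGS5 and C7 were higher and THY1 lower in SMAP9C. LUM is also among the matrix genes above. The summed level of the list ran from 32.1 to 41.6 CPM in SMAP9C, against 16.1 to 17.4 CPM in SMAP6G. RGS5, at 23.9 ± 4.66 CPM in SMAP9C and 3.76 ± 0.406 CPM in SMAP6G, was the largest part of it in SMAP9C. THY1, at 1.98 ± 0.446 CPM in SMAP9C and 11.7 ± 0.381 CPM in SMAP6G, was the largest in SMAP6G. The defining markers PDGFRA, DPT and FAP stayed at or under 0.258 CPM in all 6 libraries, and PDGFRB averaged 0.902 CPM in SMAP9C and 0.822 CPM in SMAP6G. The median log2 of the 8 was 1.56. Without chromosomes 7, 11, 12 and 19 it was 0.46, with 2 of 5 higher and 0 lower. Their part in the matrix values was not tested.

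**Figure D3:**
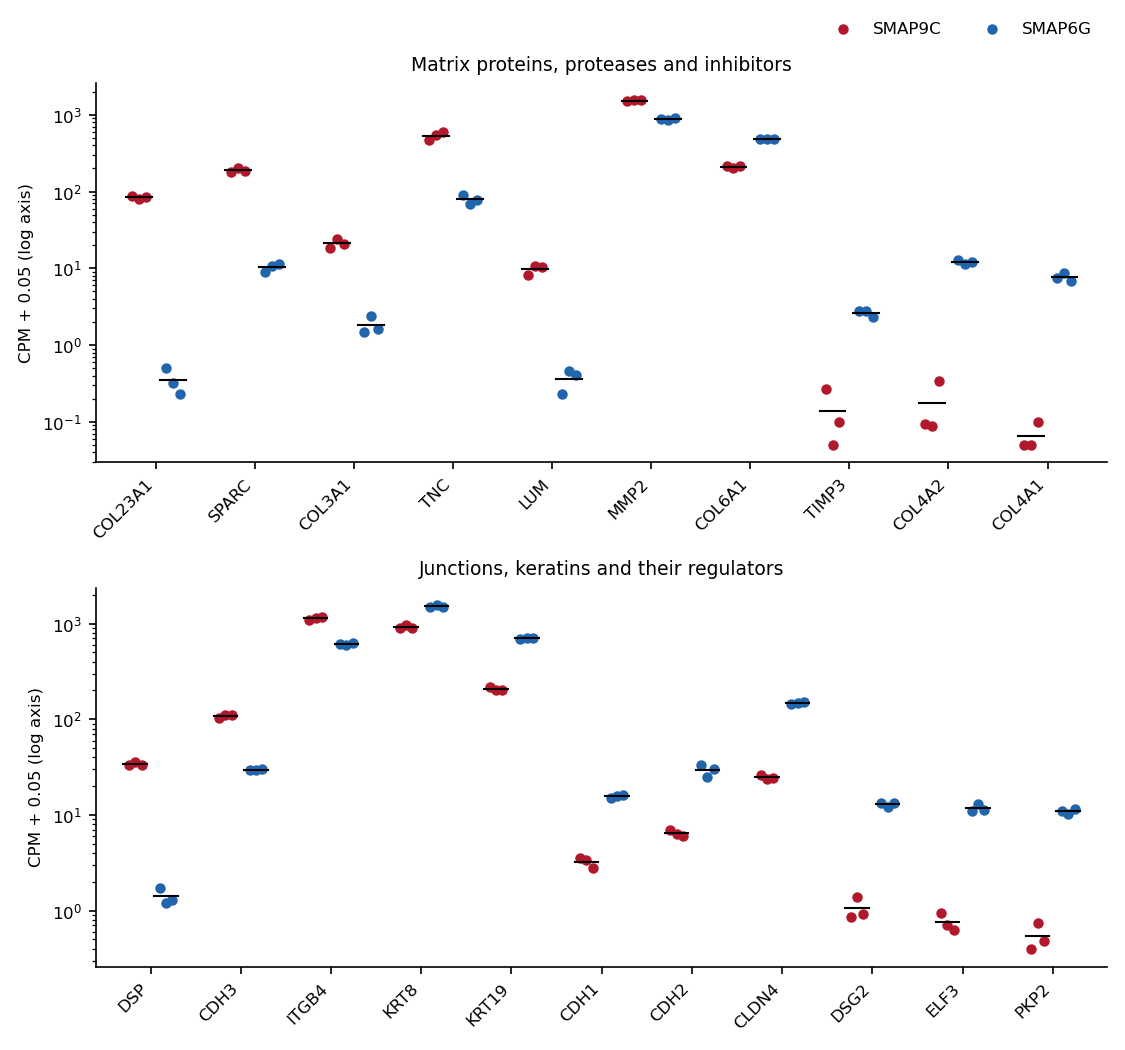
CPM + 0.05 of each library (points, log axis) with the mean (bar) for matrix genes (upper panel) and for junction and keratin genes (lower panel), SMAP9C in red left of SMAP6G in blue. The points of the clones do not overlap for any gene shown, from COL23A1, SPARC and DSP, which are higher in SMAP9C, to COL4A1 and PKP2, which are lower.

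Epithelial junction genes were called lower in SMAP9C more often than higher, with 12 of 28 tested lower, 5 higher, 11 not called and a median log2 of -0.45. The summed level of the list ran the other way, from 1980 to 2067 CPM in SMAP9C and from 1447 to 1500.3 CPM in SMAP6G, with ITGB4 as its most abundant member. Claudin 4, CLDN4 (chr7:73799542-73832693, GRCh38, plus strand), a tight junction protein of duct cells, had 26.1, 23.7 and 24.3 CPM in the SMAP9C libraries, against 143, 149.7 and 153 CPM in the SMAP6G libraries, a log2 fold change of -2.59 ± 0.08 (SE), edgeR adjusted p = 1.35e-17. E-cadherin, CDH1, averaged 3.19 ± 0.372 CPM in SMAP9C and 15.7 ± 0.553 CPM in SMAP6G. The epithelial transcription factor ELF3 averaged 0.714 ± 0.167 CPM in SMAP9C and 11.7 ± 1.14 CPM in SMAP6G. N-cadherin, CDH2, the cadherin usually tied to the mesenchymal state, was lower as well, at 6.41 ± 0.427 CPM in SMAP9C and 29.3 ± 4.16 CPM in SMAP6G (log2 -2.19 ± 0.12 (SE), edgeR adjusted p = 1.57e-12). P-cadherin, CDH3, went the other way, with 104, 109.9 and 111 CPM in the SMAP9C libraries, against 29.3, 29.3 and 29.8 CPM in the SMAP6G libraries. Thus E-cadherin and N-cadherin were both lower and P-cadherin higher in SMAP9C. Of the members tested, 8 lie on chromosomes 7, 11, 12 and 19, and without them 7 of 20 were lower, 5 higher, and the median was -0.23.

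Within the desmosome, the junction that anchors keratin filaments, the parts did not move together. The cadherins DSG2 and DSC2 were lower in SMAP9C, and DSC3, at 0.0739 CPM in SMAP9C and 0 CPM in SMAP6G, did not pass the test (edgeR adjusted p = 0.309). Desmoglein 2, DSG2, averaged 1.01 ± 0.294 CPM in SMAP9C and 12.9 ± 0.764 CPM in SMAP6G. Desmocollin 2, DSC2, averaged 0.91 ± 0.24 CPM in SMAP9C and 3.47 ± 0.197 CPM in SMAP6G. Plakophilin 2, PKP2, which links the cadherins to the plaque, had 0.344, 0.695 and 0.438 CPM in the SMAP9C libraries, against 11, 10.3 and 11.5 CPM in the SMAP6G libraries (log2 -4.44 ± 1.10 (SE), edgeR adjusted p = 0.00481). Desmoplakin, DSP (chr6:7541575-7586717, GRCh38, plus strand), the plaque protein that binds the keratins, was in contrast much higher, with 33.1, 35.8 and 33.4 CPM in the SMAP9C libraries, against 1.7, 1.14 and 1.25 CPM in the SMAP6G libraries, a log2 fold change of 4.64 ± 0.15 (SE), edgeR adjusted p = 4.3e-17. Plakoglobin, JUP, was also higher, at 243 ± 4.86 CPM in SMAP9C and 134 ± 4.63 CPM in SMAP6G (edgeR adjusted p = 0.00137). Plakophilin 3, PKP3, was lower, at 8.52 ± 0.395 CPM in SMAP9C and 19.2 ± 1.19 CPM in SMAP6G (edgeR adjusted p = 1.46e-08). JUP, PKP3 and DSC3 were chosen after their values were seen. SMAP8D showed the same mix as SMAP9C, with DSP at 61.4, DSG2 at 2.88 and PKP2 at 0.0551 CPM on average.

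Of 17 keratins and other intermediate filament genes tested, 4 were higher and 3 lower in SMAP9C, with a median log2 of -0.13 and shares near those over all genes. The lower ones were the keratins KRT19, KRT8 and KRT15, and the higher ones KRT81, KRT86, VIM and the lamin LMNB2. KRT19, a keratin of duct cells (chr17:41523617-41528308, GRCh38, minus strand), had 218, 203 and 202 CPM in the SMAP9C libraries, against 688, 709 and 699 CPM in the SMAP6G libraries, a log2 fold change of -1.75 ± 0.13 (SE), edgeR adjusted p = 2.06e-08. KRT8 averaged 922 ± 34.8 CPM in SMAP9C and 1515 ± 47.8 CPM in SMAP6G. Its partner KRT18 averaged 735 ± 19.8 CPM in SMAP9C and 835 ± 22.1 CPM in SMAP6G (log2 -0.18) and did not pass the test (edgeR adjusted p = 0.253). KRT15 averaged 40.4 ± 2.42 CPM in SMAP9C and 74.1 ± 3.41 CPM in SMAP6G. The hair keratins KRT81 and KRT86 of chromosome 12 were higher in SMAP9C, with log2 fold changes of 0.87 and 0.74 (edgeR adjusted p = 0.0176 and 0.0136). The KRT81 call was lost without SMAP6G replicate 1 (edgeR adjusted p = 0.128), and the KRT86 call without SMAP9C replicate 1 or SMAP6G replicate 2 (edgeR adjusted p = 0.0727 and 0.069). KRT81 lies inside the gene model of KRT86 on the other strand, so their reads cannot be told apart with certainty. Among the 12 tested duct identity genes 4 were lower (AQP5, KRT19, KRT8 and ONECUT2) and only MUC1 higher. ITGB4, the integrin of hemidesmosomes that also anchors keratins, was nevertheless higher, with 1094, 1141 and 1163 CPM in the SMAP9C libraries, against 617, 601 and 633 CPM in the SMAP6G libraries. ITGB4 was one of 5 higher and 4 lower among 18 integrins tested, with 2 lower without SMAP9C replicate 3. The focal adhesion protein vinculin, VCL, was higher too, at 1886 ± 47.9 CPM in SMAP9C and 1191 ± 15.9 CPM in SMAP6G.

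Receptors and ligands of axon guidance, many of which also steer migrating tumour cells, held some of the widest differences. Of 56 tested, 18 were higher and 8 lower in SMAP9C, 10 and 2 of them at least 2-fold, with a median log2 of 0.26. The ephrin receptor EPHA7 (chr6:93240020-93419547, GRCh38, minus strand) had 93.7, 114 and 107 CPM in the SMAP9C libraries, against 3.97, 4.66 and 3.97 CPM in the SMAP6G libraries, a log2 fold change of 4.64 ± 0.18 (SE), edgeR adjusted p = 3e-12. Its relative EPHA3 averaged 2.28 ± 0.0961 CPM in SMAP9C and 0.105 ± 0.112 CPM in SMAP6G. Netrin 1, NTN1, a guidance ligand, averaged 20.8 ± 1.02 CPM in SMAP9C and 2.19 ± 0.293 CPM in SMAP6G. Its receptor UNC5B averaged 35.7 ± 0.508 CPM in SMAP9C and 8.25 ± 1.01 CPM in SMAP6G. In this system a ligand and its receptor were thus both higher. Neuropilin 2, NRP2, a receptor of semaphorins and VEGF-C, had 47.9, 47.3 and 53.4 CPM in the SMAP9C libraries, against 5.98, 4.52 and 5.3 CPM in the SMAP6G libraries. The ephrin receptors EPHB4 and EPHA4 were lower. EPHB4 averaged 142 ± 6.68 CPM in SMAP9C and 224 ± 4.14 CPM in SMAP6G. EPHA4 averaged 0.655 ± 0.0623 CPM in SMAP9C and 2.47 ± 0.311 CPM in SMAP6G. NRP2 averaged 4.54 CPM in SMAP8D, near SMAP6G, whereas EPHA7 averaged 162 CPM there, above both clones.

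WNT signalling genes were called more often on the higher side, with 19 of 36 tested higher, 4 lower and a median log2 of 0.41. The ligands WNT16 and WNT7A were near 0 in SMAP6G. WNT16 averaged 3.84 ± 0.299 CPM in SMAP9C and 0.0747 ± 0.0927 CPM in SMAP6G. WNT7A averaged 2.62 ± 0.334 CPM in SMAP9C and 0.104 ± 0.103 CPM in SMAP6G. Among the receptors, FZD8 averaged 7.11 ± 0.806 CPM in SMAP9C and 0.707 ± 0.326 CPM in SMAP6G and the more abundant FZD6 had a log2 fold change of 1.37. SFRP4, a secreted antagonist, averaged 3.11 ± 0.722 CPM in SMAP9C and 0.300 ± 0.117 CPM in SMAP6G. AXIN2, a target and feedback inhibitor of the beta-catenin branch, averaged 8.15 ± 1.12 CPM in SMAP9C and 3.7 ± 0.433 CPM in SMAP6G (log2 1.14, edgeR adjusted p = 0.000663). The antagonist DKK1 was lower, at 225 ± 5.28 CPM in SMAP9C and 336 ± 4.6 CPM in SMAP6G (edgeR adjusted p = 3.07e-08). AXIN2 and DKK1 were chosen after their values were seen. LEF1, a nuclear factor of the pathway, was nearly absent, at 0.0291 ± 0.0257 CPM in SMAP9C and 0.0152 ± 0.0264 CPM in SMAP6G.

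Notch pathway genes showed 9 higher and 2 lower of 23 tested, with a median log2 of 0.31. The ligand DLL1 averaged 17.4 ± 2.04 CPM in SMAP9C and 9.75 ± 0.54 CPM in SMAP6G. Of the HES and HEY family, which holds Notch targets, HES2 had a log2 fold change of 1.25 and HEYL one of 0.91. LFNG, which modifies Notch with sugars, was lower, at 10.5 ± 0.458 CPM in SMAP9C and 18.3 ± 0.439 CPM in SMAP6G. LFNG lies on chromosome 7. The number of higher Notch calls was 14 when only the 6 libraries were fitted, and the lower calls were 1 without replicate 1 or 2 of either clone.

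Outputs of the ERK pathway, genes that growth factor signalling induces and that feed back on it, were also more often higher, with 13 of 28 higher, 3 lower and a median log2 of 0.49. The phosphatase DUSP6, which acts on ERK, averaged 6.04 ± 0.358 CPM in SMAP9C and 1.81 ± 0.182 CPM in SMAP6G. The ETS factor ETV5 averaged 46.6 ± 0.846 CPM in SMAP9C and 17.5 ± 2.73 CPM in SMAP6G. The feedback inhibitor SPRY4 averaged 63.4 ± 1.52 CPM in SMAP9C and 28.9 ± 1.92 CPM in SMAP6G. These 3 are classical readouts of the pathway and were higher. Among all 28, however, 4 were at least 2-fold higher and 3 at least 2-fold lower. DUSP4, another ERK phosphatase, was lower, at 1.11 ± 0.382 CPM in SMAP9C and 3.00 ± 0.104 CPM in SMAP6G. Without genes of chromosomes 7, 11, 12 and 19 the count was 7 higher and 3 lower of 20, and the median 0.27. Immediate early genes had 12 higher and 1 lower (KLF4) of 28, and 5 higher and 1 lower of 18 without those chromosomes. JUNB, part of the AP-1 factor, averaged 83.1 ± 3.42 CPM in SMAP9C and 44.4 ± 1.02 CPM in SMAP6G. KLF6 averaged 229.9 ± 5.18 CPM in SMAP9C and 136 ± 0.819 CPM in SMAP6G. The receptor MET was lower, at 149 ± 8.19 CPM in SMAP9C and 284 ± 11.9 CPM in SMAP6G, and lies on chromosome 7.

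**Figure D4:**
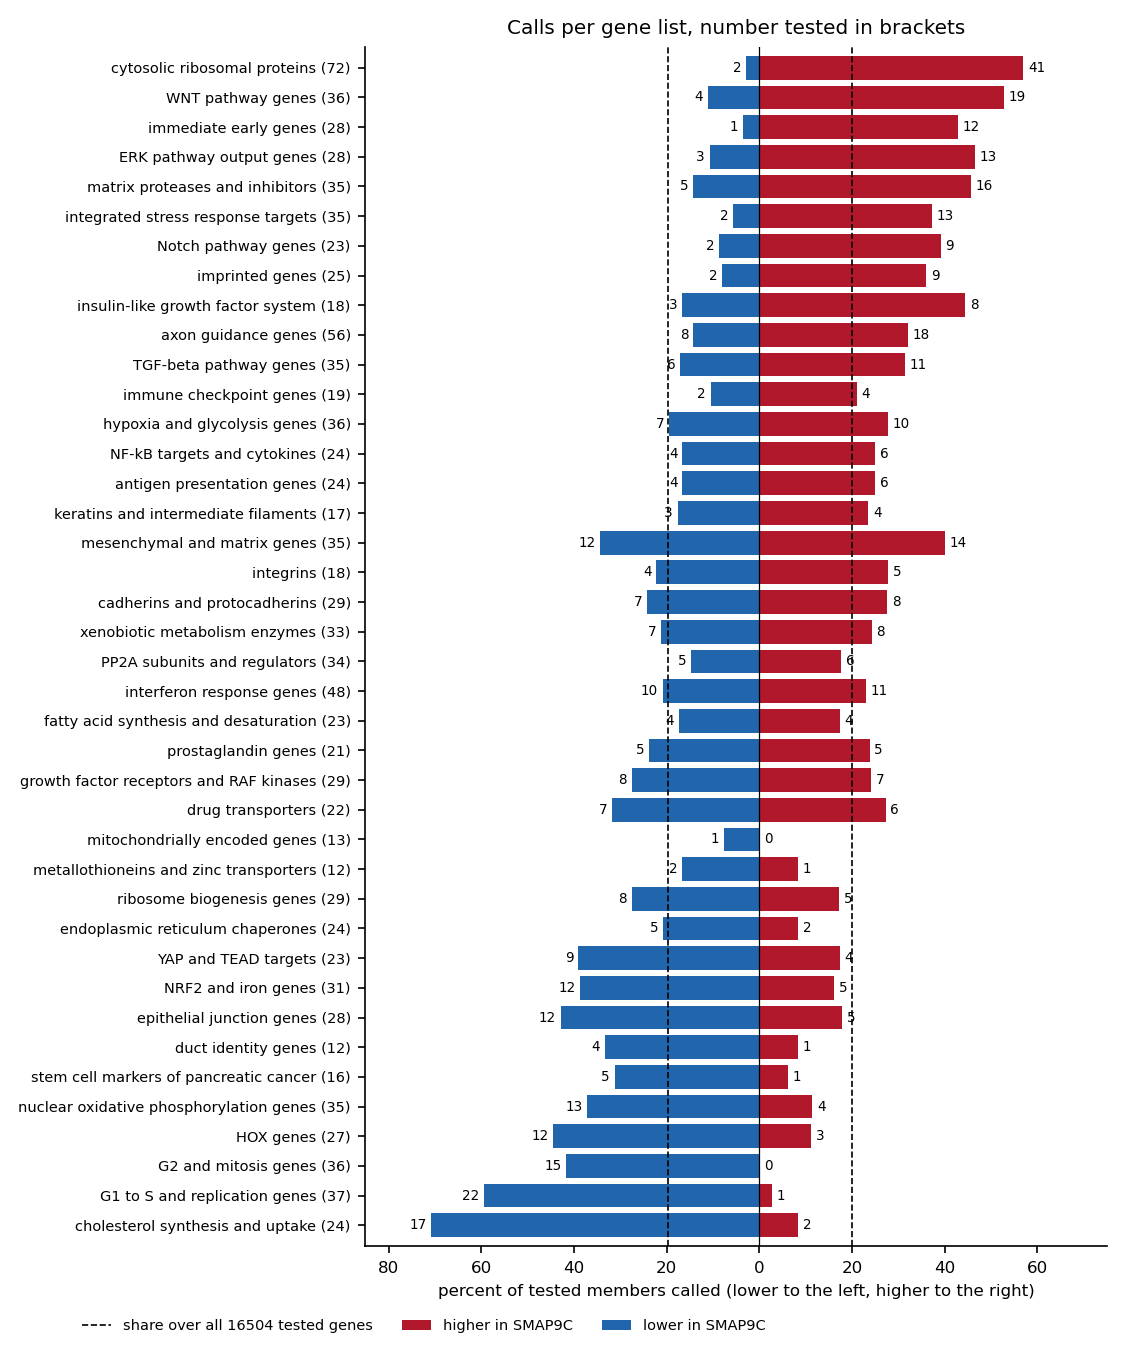
Share of the tested members of each gene list that passed the test, lower in SMAP9C to the left (blue) and higher to the right (red), with the counts at the bar ends and the number tested in brackets; dashed lines give the shares over all 16504 genes, 20.0% and 19.7%. Ribosomal proteins and WNT genes reach furthest to the right and cholesterol and replication genes furthest to the left.

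Secreted factors and hormones differed in level by large factors. Secretogranin 2, SCG2, a granin of secretory granules, had 209, 252 and 232 CPM in the SMAP9C libraries, against 17.5, 19.9 and 17 CPM in the SMAP6G libraries, a log2 fold change of 3.67 ± 0.20 (SE), edgeR adjusted p = 1.12e-09. It made up most of the summed acinar and endocrine markers in SMAP9C, while CHGB, another granin, at 39.9 CPM in SMAP9C and 40.7 CPM in SMAP6G, made up most of them in SMAP6G. The sum ran from 251.1 to 295.4 CPM in SMAP9C and from 57.1 to 64.1 CPM in SMAP6G, and INS, GCG, SST, NEUROD1, PRSS1 and CPA1 had 0 counts. In the insulin-like growth factor system 8 of 18 genes were higher and 3 lower, with a median log2 of 0.38. The ligand IGF2 averaged 19.1 ± 1.08 CPM in SMAP9C and 6.16 ± 0.841 CPM in SMAP6G. The insulin receptor INSR averaged 33.8 ± 2.78 CPM in SMAP9C and 16.8 ± 1.13 CPM in SMAP6G. Stanniocalcin, STC1, averaged 115 ± 8.24 CPM in SMAP9C and 22.2 ± 0.305 CPM in SMAP6G. The binding proteins went both ways. IGFBP7 was higher, at 8.25 ± 0.721 CPM in SMAP9C and 1.12 ± 0.295 CPM in SMAP6G. IGFBP4 was lower, at 9.73 ± 1.43 CPM in SMAP9C and 36.9 ± 2.96 CPM in SMAP6G. IGFBP6 was lower as well, with a log2 fold change of -2.62. TGF-beta pathway genes had 11 higher and 6 lower of 35, a median log2 of -0.01. The activin chain INHBB was lower, at 2.00 ± 0.300 CPM in SMAP9C and 13.7 ± 0.95 CPM in SMAP6G. BMP7 was lower too (log2 -1.40). The latent TGF-beta binding proteins LTBP1 and LTBP2 were higher, with log2 fold changes of 1.95 and 1.44.

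Genes of cholesterol synthesis and uptake were lower as a group, by small amounts. Of 24 tested, 17 were lower and 2 higher in SMAP9C, with a median log2 of -0.33. The sterol reductase DHCR7 averaged 114 ± 4.42 CPM in SMAP9C and 184 ± 4.91 CPM in SMAP6G. The desaturase SC5D averaged 47.7 ± 1.73 CPM in SMAP9C and 74 ± 4.68 CPM in SMAP6G. HSD17B7, with a log2 fold change of 0.94, was 1 of the 2 higher genes, a count of 1 without any single library but SMAP9C replicate 1. DHCR7 and SC5D lie on chromosome 11. Without chromosomes 7, 11, 12 and 19, 12 of 17 were lower and 1 higher. Fatty acid genes showed 4 higher and 4 lower of 23, with 2 lower without SMAP9C replicate 2 or 3 or SMAP6G replicate 2. ABCA1, which exports cholesterol from the cell, averaged 13.2 ± 1.37 CPM in SMAP9C and 1.5 ± 0.166 CPM in SMAP6G.

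Cell cycle genes were called lower in SMAP9C more often than higher, by small amounts. In the G1 to S and replication list 22 of 37 were lower and 1 (CHAF1A) higher, with a median log2 of -0.24, and in the G2 and mitosis list 15 of 36 were lower and 0 higher, with a median of -0.13. The helicase subunit MCM7 averaged 154 ± 5.71 CPM in SMAP9C and 209.8 ± 5.33 CPM in SMAP6G. The flap endonuclease FEN1 averaged 54.5 ± 2.51 CPM in SMAP9C and 83.5 ± 2.14 CPM in SMAP6G. The cyclin CCNE2 and the factor E2F8 had log2 fold changes of -0.59 and -0.83. The proliferation marker MKI67 averaged 520.5 ± 24.7 CPM in SMAP9C and 567 ± 77.2 CPM in SMAP6G and did not pass the test (adjusted p = 0.376, edgeR). Without SMAP9C replicate 2 the lower calls were 13 in the first list and 9 in the second, and without SMAP6G replicate 1 the second had 8. Of the kinase inhibitors of the CDKN1 family CDKN1A and CDKN1C were higher, and CDKN1B did not pass the test (log2 0.09, edgeR adjusted p = 0.511). The list of growth arrest genes that holds them had 5 higher and 11 lower of 29, with a median log2 of -0.16. CDKN1A averaged 84.4 ± 1.85 CPM in SMAP9C and 46.9 ± 1.36 CPM in SMAP6G. CDKN1C averaged 12.7 ± 0.984 CPM in SMAP9C and 5.16 ± 1.56 CPM in SMAP6G.

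Ribosomal protein genes were the list most often higher, with 41 of 72 higher and 2 lower, at a median log2 of 0.21. RPL37 averaged 1338 ± 109 CPM in SMAP9C and 858 ± 25.1 CPM in SMAP6G. RPS28 averaged 293 ± 15.9 CPM in SMAP9C and 195 ± 0.89 CPM in SMAP6G. RPS28 lies on chromosome 19, and without chromosomes 7, 11, 12 and 19 the count was 29 higher and 0 lower of 52. These genes have many processed pseudogenes, and how reads with several matches were counted is not given in the sources used here. Targets of the integrated stress response, the programme driven by ATF4 when amino acids run short, had 13 higher and 2 lower of 35, a median log2 of 0.23. The amino acid transporter SLC7A5, the most abundant of them after SLC38A2, had 1279, 1149 and 1255 CPM in the SMAP9C libraries, against 677, 656 and 685 CPM in the SMAP6G libraries (log2 0.87 ± 0.12 (SE), edgeR adjusted p = 2.9e-05). The serine synthesis enzymes PHGDH and PSAT1 were higher, by log2 fold changes of 1.26 and 0.85, as was the glutathione-degrading CHAC1 (1.24). ATF4 itself averaged 174 ± 11.7 CPM in SMAP9C and 139 ± 10.7 CPM in SMAP6G (edgeR adjusted p = 0.000907). Higher calls were 22 when only the 6 libraries were fitted. Nuclear genes of oxidative phosphorylation had 4 higher and 13 lower of 35, with SDHD, on chromosome 11, at 50.5 ± 0.853 CPM in SMAP9C and 85.3 ± 0.596 CPM in SMAP6G. Of the 13 genes encoded by mitochondrial DNA, MT-ND3 was lower and none was higher, with 2 lower without SMAP6G replicate 2 and 0 without SMAP6G replicate 3.

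Antioxidant and iron genes controlled by NRF2 were lower in 12 and higher in 5 of 31 cases. The ferritin light chain FTL averaged 511 ± 31.4 CPM in SMAP9C and 941 ± 32.7 CPM in SMAP6G. Outside the list, the autophagy receptor SQSTM1 averaged 871 ± 28.2 CPM in SMAP9C and 1487 ± 57.5 CPM in SMAP6G. AKR1C1, an aldo-keto reductase that is often read as an NRF2 target, went the other way, with 7.73, 7.73 and 7.59 CPM in the SMAP9C libraries, against 0.0892, 0.274 and 0.223 CPM in the SMAP6G libraries (log2 5.26 ± 0.29 (SE), edgeR adjusted p = 8.6e-13). It has close copies in its own family, so its counts depend on how reads with several matches were treated. Among drug transporters 6 were higher and 7 lower of 22, with 3 higher without SMAP9C replicate 3 or SMAP6G replicate 2. The efflux pump ABCC3 averaged 92 ± 0.495 CPM in SMAP9C and 221 ± 11.8 CPM in SMAP6G. The uptake transporter SLCO1B3 averaged 0.0673 ± 0.0602 CPM in SMAP9C and 1.72 ± 0.338 CPM in SMAP6G. ABCG2, another efflux pump, averaged 27.4 ± 2.2 CPM in SMAP9C and 21.1 ± 0.513 CPM in SMAP6G and did not pass the test (edgeR adjusted p = 0.0611). Xenobiotic enzymes were split, with 8 higher and 7 lower of 33 (5 higher without SMAP9C replicate 3 or SMAP6G replicate 1, and 4 without SMAP6G replicate 2). The esterase CES1 averaged 41 ± 3.21 CPM in SMAP9C and 19.8 ± 1.42 CPM in SMAP6G. The methyltransferase NNMT averaged 6.64 ± 0.336 CPM in SMAP9C and 15.5 ± 0.219 CPM in SMAP6G.

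Immune response genes were split as well. Among 48 interferon response genes 11 were higher and 10 lower. MX2, an antiviral GTPase, had 12.7, 8.54 and 10.2 CPM in the SMAP9C libraries, against 47.7, 49 and 46.4 CPM in the SMAP6G libraries, a log2 fold change of -2.19 ± 0.13 (SE), edgeR adjusted p = 2.5e-11. BST2, which tethers virus particles, averaged 18.5 ± 1.55 CPM in SMAP9C and 33.8 ± 1.93 CPM in SMAP6G. TRIM22 was higher, with a log2 fold change of 1.62. OAS2 was higher as well, at 24 ± 0.853 CPM in SMAP9C and 10.8 ± 1.25 CPM in SMAP6G. The higher calls were 6 without SMAP6G replicate 1, and the lower calls 16 when only the 6 libraries were fitted. In the NF-kB list, several CXC chemokines were higher, with CXCL8 at 5.02 ± 0.645 CPM in SMAP9C and 1.87 ± 0.0784 CPM in SMAP6G. CXCL6 and CXCL3 had log2 fold changes of 2.33 and 1.71. The adhesion molecule ICAM1 was lower, at 13.7 ± 1.39 CPM in SMAP9C and 43.2 ± 3.74 CPM in SMAP6G. TNFAIP2 and the apoptosis inhibitor BIRC3 were lower as well, with log2 fold changes of -1.23 and -0.90. The list counted 6 higher and 4 lower of 24, with 11 lower when only the 9 SMAP libraries were fitted. CXCL8 lost its call when any library but SMAP9C replicate 2 was left out, with edgeR adjusted p between 0.0574 and 0.0687. Class II genes of antigen presentation had few reads. HLA-DRA was higher in SMAP9C, at 1.94 ± 0.0761 CPM in SMAP9C and 0.493 ± 0.423 CPM in SMAP6G, and HLA-DPA1 had a log2 fold change of 1.62. The invariant chain CD74 was lower, at 4.94 ± 0.533 CPM in SMAP9C and 9.87 ± 1.74 CPM in SMAP6G. One SMAP6G library had 0.981 CPM of HLA-DRA and the others 0.223 and 0.274 CPM.

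Several of the most divergent genes belong to none of these pathways. On the higher side, SORBS2, an adaptor of actin and adhesion sites, had 5.71, 6.95 and 7.15 CPM in the SMAP9C libraries, against 0, 0.0913 and 0.0446 CPM in the SMAP6G libraries, or 460 reads against 3, a ratio of 147 with a 95% counting interval of 49.9 to 714. LPAR3, a receptor of lysophosphatidic acid, averaged 11.4 ± 0.81 CPM in SMAP9C and 0.15 ± 0.071 CPM in SMAP6G. The urea transporter SLC14A1 averaged 31.1 ± 3.16 CPM in SMAP9C and 1.23 ± 0.299 CPM in SMAP6G. The cGMP-dependent kinase PRKG1 averaged 18.3 ± 1.29 CPM in SMAP9C and 0.704 ± 0.208 CPM in SMAP6G. The histone variant gene H2AFY2, PRICKLE2 of the planar polarity pathway, RTN1 and KIAA1211 were also among the 15 furthest apart, with log2 fold changes of 4.83, 4.27, 4.32 and 6.22. GGTA1P, a pseudogene in humans, averaged 11.2 ± 0.233 CPM in SMAP9C and 0.284 ± 0.142 CPM in SMAP6G. PLAGL1, an imprinted zinc finger gene, had 271 reads in SMAP9C against 2 in SMAP6G, a ratio of 129.7 with a counting interval of 35.6 to 1077.

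On the lower side, DNER, a ligand-like protein of the Notch family known from neurons (chr2:229357629-229714558, GRCh38, minus strand), had 2.41, 1.93 and 2.04 CPM in the SMAP9C libraries, against 59.6, 49.7 and 54.4 CPM in the SMAP6G libraries, a log2 fold change of -4.68 ± 0.16 (SE), edgeR adjusted p = 1.32e-16. DLC1, a GTPase-activating protein for RhoA, averaged 0.352 ± 0.251 CPM in SMAP9C and 16.6 ± 1.22 CPM in SMAP6G (log2 -5.56 ± 0.66 (SE), edgeR adjusted p = 6.33e-06). The adenylate kinase AK5 averaged 0.141 ± 0.039 CPM in SMAP9C and 9.1 ± 0.93 CPM in SMAP6G. The receptor phosphatase PTPRM averaged 0.177 ± 0.105 CPM in SMAP9C and 8.56 ± 1.2 CPM in SMAP6G. Also among the genes furthest apart on this side were the angiomotin AMOT (log2 -4.40), the calcium channel subunit CACNA2D1 (-4.67) and the transcription factors CUX2 (-4.54) and ZNF516 (-4.89). HSPD1P1, a pseudogene of the mitochondrial chaperone HSPD1, averaged 0.237 ± 0.127 CPM in SMAP9C and 9.06 ± 1.24 CPM in SMAP6G. HSPD1 itself averaged 486 ± 2.24 CPM in SMAP9C and 598 ± 7.45 CPM in SMAP6G, and the reads of such copies cannot be assigned with certainty. The pseudogene's call was lost with limma-voom (adjusted p = 0.0856) and without SMAP9C replicate 2 or 3 (edgeR adjusted p = 0.0577 and 0.0569). Some abundant transcripts differed as well. The sialomucin gene PODXL averaged 442 ± 11.6 CPM in SMAP9C and 1005 ± 12.6 CPM in SMAP6G. The nuclear RNA NEAT1 averaged 587 ± 34.5 CPM in SMAP9C and 1125 ± 56.2 CPM in SMAP6G. CRABP2, which binds retinoic acid, was lower too (log2 -0.87). The peptidases ANPEP and ECE1 were higher, with log2 fold changes of 1.07 and 0.86.

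The clone SMAP8D gave a level against which both could be set. SMAP9C differed from SMAP8D in 5799 genes (35.1%), of which 1017 (6.16%) were at least 2-fold apart. SMAP6G differed from SMAP8D in 5740 genes (34.8%), with 1134 (6.87%) at least 2-fold apart. These comparisons share libraries with each other. The root mean square log2 distance over 10709 genes was 0.438 between SMAP9C and SMAP6G, 0.411 between SMAP9C and SMAP8D and 0.420 between SMAP6G and SMAP8D, so the 3 SMAP clones were about equally far apart. Of the 673 genes at least 2-fold higher in SMAP9C, SMAP8D was nearer to SMAP9C in 378 and to SMAP6G in 295. Of the 610 at least 2-fold lower, it was nearer to SMAP9C in 345 and to SMAP6G in 265. SMAP8D lay above or below both clones in 223 of the 673 and in 210 of the 610. AK5, DLC1, PTPRM, CUX2 and DNER were low in SMAP8D as in SMAP9C, at 0.392, 0.698, 0.346, 0.058 and 1.18 CPM on average. CACNA2D1 averaged 20.2 CPM in SMAP8D, above both.

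**Figure D5:**
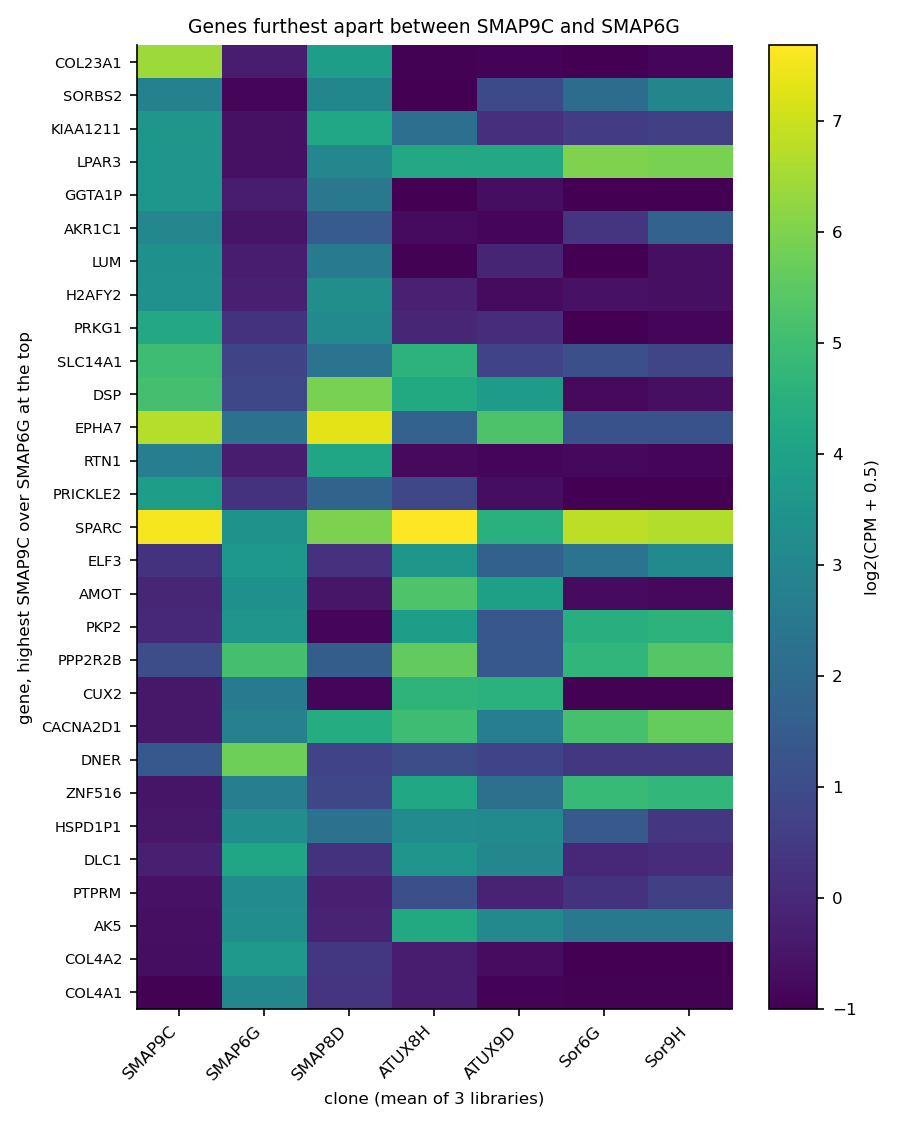
Mean log2(CPM + 0.5) over 3 libraries of each of the 7 clones (columns) for the genes with the largest differences under the naming rule that are reported here (rows, highest ratio of SMAP9C over SMAP6G at the top). SMAP8D is bright with SMAP9C for SORBS2, DSP and EPHA7, and COL4A1 and COL4A2 are bright in SMAP6G alone.

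Some of the smaller differences followed the position of genes on chromosomes. Over genes whose mean reached 5 CPM, chromosome 12 had 353 higher and 22 lower of 576 in SMAP9C, with a median log2 of 0.26, and chromosome 19 had 336 higher and 64 lower of 779, with a median of 0.17. Chromosome 11 had 45 higher and 381 lower of 645, with a median of -0.24, and chromosome 7 had 37 higher and 314 lower of 498, with a median of -0.28. The other named chromosomes had medians between -0.13 and 0.15, but stretches of some of them were shifted too. On chromosome 5, 22 of 30 genes at 0 to 10 Mb were higher, with a median of 0.26. On chromosome 10, 32 of 55 at 100 to 110 Mb were higher, with a median of 0.22. On chromosome 2, 16 of 22 at 130 to 140 Mb were lower, with a median of -0.24. Counts without chromosomes 7, 11, 12 and 19 therefore still hold genes of such stretches. In windows of 10 Mb the medians were widest at 70 to 80 Mb of chromosome 12, with 18 of 19 genes higher and a median of 0.50, and at 100 to 110 Mb of chromosome 11, with 17 of 20 lower and a median of -0.57. At 70 to 80 Mb of chromosome 7, 33 of 42 were lower, with a median of -0.55. On the X chromosome 10 to 20 Mb had a median of 0.40 and 150 to 160 Mb one of -0.29. NAP1L1, a histone chaperone on chromosome 12, averaged 1094 ± 20.7 CPM in SMAP9C and 685 ± 13.7 CPM in SMAP6G. YWHAG, a signalling adaptor on chromosome 7, averaged 325 ± 0.811 CPM in SMAP9C and 452 ± 1.62 CPM in SMAP6G. ATM, the kinase of the DNA damage response, on chromosome 11, averaged 147 ± 11.4 CPM in SMAP9C and 245 ± 23.1 CPM in SMAP6G. DNA was not measured, and the part of gene dose in these values was not tested.

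Genes at least 2-fold apart were about as frequent outside these chromosomes. Without chromosomes 7, 11, 12 and 19, 530 genes were at least 2-fold higher and 443 at least 2-fold lower of 12632 tested, against 673 and 610 of 16504 with them. Among the most divergent genes some neighbours went along. STK32A, within 1 Mb of PPP2R2B, averaged 0.331 ± 0.0671 CPM in SMAP9C and 4.53 ± 0.841 CPM in SMAP6G. PID1, beside DNER, averaged 0.924 ± 0.139 CPM in SMAP9C and 13.8 ± 0.55 CPM in SMAP6G. DCN beside LUM had a log2 fold change of 2.74 and AKR1C3 beside AKR1C1 one of 2.49. Genes called at least 2-fold apart also lay within 1 Mb of H2AFY2 (2 higher and 3 lower), LPAR3 (3 higher) and SPARC (1 higher and 2 lower). With all tested genes within 1 Mb counted, the median log2 was -0.33 over the 8 around PPP2R2B and 0.07 over the 11 around COL4A2. STK32A, PID1, DCN, AKR1C3 and, in the paragraphs on pathways, MCM7, MKI67, CDKN1B, CHGB, ATF4, ABCG2, LEF1 and KRT18 were chosen after their values were seen.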

How the data were processed

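Poly-A RNA was sequenced from 3 libraries of each of 7 clones (500 ng total RNA, TruSeq Stranded mRNA, per the labels' protocols). The authors deposited raw counts per gene (58233 genes, GRCh38); the submitters' processing notes list featureCounts 1.5.3, STAR 2.5.2b, cutadapt 1.15, SAMtools 1.5 and Bowtie2 2.3.3.1. For the annotation release, the strand setting and reads that match several places, the choice made is not given in the sources used here. The GC percent and positions of genes are as deposited. Counts were tested in R 4.3.3 with edgeR 4.0.16 (TMM, filterByExpr, robust quasi-likelihood fit, clone as the factor over all 21 libraries, Benjamini-Hochberg over 16504 genes), checked on simulated data. CPM use TMM-adjusted library totals. Totals were 21022621 to 26289675 counts in the 6 libraries compared. Alternatives were RLE scaling, DESeq2 1.42.0, limma 3.58.1 (voom), no filter, fewer libraries, a replicate block, no mitochondrial genes, leaving out each library, and leaving out chromosomes. Named genes were the 15 furthest apart per direction with at least 5 CPM and no overlap, the 10 with the largest difference in mean CPM, up to 5 per gene list, called PP2A genes, and up to 3 per shifted chromosome window; others are said to be chosen later. A few genes that these rules name are not reported here. Clones, lists and rules were chosen with earlier results of these data known. For the list shares the counts over all genes are the background. Sequences are from RefSeq.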

Additional observations from a re-analysis of the deposited data

How the results depend on the processing

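The counts of genes kept within 1.5 times under all 14 other settings listed for them. Leaving out 1 library at a time gave 2725 to 2923 higher, 2696 to 2959 lower, 609 to 650 at least 2-fold higher and 562 to 583 at least 2-fold lower genes. Fitting only the 6 libraries gave 4043 and 3856 calls, and fitting the 9 SMAP libraries 3941 and 4164. Leaving out chromosomes 7, 11, 12 and 19, chosen after seeing the data, gave 2364 and 2281. Over 214 named genes, 2954 of 2995 alternative values kept direction and call, 41 lost the call in 12 genes (PPP2R2C, ALDH3A1, SET, ONECUT2, ARPP19, CYP27A1, ANP32A, PPP2R3B, CXCL8, KRT86, KRT81 and HSPD1P1) and 0 reversed. Of 601 list medians under the alternatives 49 had another sign than the main one, 48 of them in 13 lists whose median lay within 0.1 of 0. The other was that of the stem cell markers of pancreatic cancer, which was -0.12 and ran from -0.26 to 0.046 when 1 library was left out (0.046 without SMAP9C replicate 2); the cause was not tested. The fibroblast markers' median was 2.67 with the 6 libraries, 2.69 with the 9 SMAP libraries and 0.46 without chromosomes 7, 11, 12 and 19. Fitting only the 6 libraries also gave more calls in the lists of YAP targets (9 higher), integrins (9 higher), fatty acid genes (8 higher and 7 lower), growth arrest genes (8 higher), TGF-beta genes (10 lower), NF-kB genes (7 lower), ERK outputs (6 lower), immediate early genes (6 lower), keratins (8 lower), endoplasmic reticulum chaperones (5 higher) and stem cell markers (4 higher). Without a filter, PP2A genes had 3 higher, stress response targets 20 higher, integrins 9 higher, fatty acid genes 7 higher and NF-kB genes 8 lower. Same-numbered libraries did not deviate together (r = -0.24, -0.04 and -0.04 across genes), and pairs with different numbers had r from -0.13 to 0.15. Deviations from means of only 3 libraries cannot exclude a shared batch or pairing. With the replicate block 3363 genes were higher and 3321 lower, 676 and 610 of them at least 2-fold. Genes below about 1 CPM rest on few reads, so small differences there were not detectable. Of 1411 listed names 1, GSTT1, was not found in the table.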

Other observations

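Counts for the gene lists outside the pathways above are given here, to be read against the 20.0% higher and 19.7% lower over all genes. Prostaglandin genes had 5 higher and 5 lower of 21 in SMAP9C, among them the phospholipase PLA2G4A at 1.13 ± 0.184 CPM in SMAP9C and 0.242 ± 0.269 CPM in SMAP6G and the synthase PTGES at 3.36 ± 0.679 CPM in SMAP9C and 0.987 ± 0.343 CPM in SMAP6G, which make prostaglandin E2 precursors and product, against the degrading enzyme HPGD at 0.303 ± 0.159 CPM in SMAP9C and 2.17 ± 0.261 CPM in SMAP6G. Imprinted genes had 9 higher and 2 lower of 25, with the antisense RNA KCNQ1OT1 at 4.95 ± 0.704 CPM in SMAP9C and 10.6 ± 2.5 CPM in SMAP6G. HOX genes had 3 higher and 12 lower of 27. HOXA2 and HOXA3 lie on chromosome 7, and without chromosomes 7, 11, 12 and 19 the HOX count was 0 higher and 7 lower of 10. HOXB9 averaged 8.49 ± 1.12 CPM in SMAP9C and 15.6 ± 1.32 CPM in SMAP6G and HOXC13 39 ± 2.43 CPM in SMAP9C and 18.5 ± 0.798 CPM in SMAP6G.

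Growth factor receptors and RAF kinases had 7 higher and 8 lower of 29. The stem cell factor receptor KIT averaged 0.0901 ± 0.0538 CPM in SMAP9C and 1.3 ± 0.393 CPM in SMAP6G and the collagen receptor DDR2 11.6 ± 1.34 CPM in SMAP9C and 3.95 ± 0.319 CPM in SMAP6G. The stem cell marker DCLK1, a microtubule-binding kinase, averaged 0.0716 ± 0.124 CPM in SMAP9C and 1.26 ± 0.327 CPM in SMAP6G, and 5 markers of that list were lower and 1 higher of 16. Targets of YAP and TEAD had 4 higher and 9 lower of 23, with 2 higher without SMAP6G replicate 3. Immune checkpoint genes had 4 higher and 2 lower of 19 (1 lower without SMAP9C replicate 2 or 3 or SMAP6G replicate 2), with CD276 (B7-H3) at 134 ± 4.79 CPM in SMAP9C and 74.3 ± 3.16 CPM in SMAP6G and VSIR at 10.3 ± 1.07 CPM in SMAP9C and 27 ± 0.747 CPM in SMAP6G. Hypoxia and glycolysis genes had 10 higher and 7 lower of 36, with the glucose transporter SLC2A1 at 35.5 ± 0.377 CPM in SMAP9C and 62.1 ± 2.66 CPM in SMAP6G. The desaturase SCD5 averaged 1.84 ± 0.308 CPM in SMAP9C and 0.134 ± 0.118 CPM in SMAP6G, and endoplasmic reticulum chaperones had 2 higher and 5 lower of 24. Cadherins and protocadherins counted 8 higher and 7 lower of 29, ribosome biogenesis genes 5 and 8 of 29 (3 higher without SMAP9C replicate 1 or SMAP6G replicate 2), and metallothioneins and zinc transporters 1 and 2 of 12. In the last list 0 were higher without SMAP9C replicate 1 or SMAP6G replicate 1, and 0 lower without SMAP9C replicate 3 and 1 without SMAP6G replicate 1 or 3. Of the endothelial markers SOX17 was higher and TIE1 lower of 4 tested, and of the immune markers ITGAM was lower of 3 tested.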
